A study of Homo sapiens with 4 samples.

Results

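RNAPII-linked DNA loops that were listed with the same pair of anchors, and with 5 or more paired-end tags (PETs), in both mock- and PDS-treated HepG2 cells are described here and are called retained loops. There were 849 of them among the 77862 loops found in either list, so the members were chosen by their PET counts, and those counts and their PDS/mock ratios are given as a description with no test. HepG2 is an established line of human liver cancer cells. Pyridostatin, abbreviated PDS, is a ligand of guanine quadruplex (G4) structures, which guanine-rich DNA can fold into. The Mock group was HepG2 cells given sterilized water, and the PDS group was HepG2 cells given 20 µM PDS, both for 24 h with 2 replicates each. Both groups were the same cell line, and nothing but the treatment differed by the labels. POLR2A HiChIP-seq joins DNA fragments that lie close together in nuclei and enriches those bound by POLR2A, the largest subunit of RNAPII. A PET is 1 read pair that joins a pair of anchors. For each condition the 2 replicates came as 1 combined list of loops, so no spread between replicates exists and no test between conditions was possible.

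RNAPII transcribes protein-coding and many noncoding genes, and contacts between promoters, enhancers and gene bodies are often seen where it is loaded. Promoters are rich in runs of guanine that can fold into G4 structures. In hepatocyte-like cells such as HepG2, genes for plasma proteins, apolipoproteins and lipid synthesis are among the most transcribed. An anchor counts as a promoter anchor if it comes within 1 kb of the start of any transcript of a protein-coding gene. In mock loops of at least 5 PETs, 4789 of all 20020 annotated protein-coding genes had a promoter anchor. Among listed genes, 28 of 65 plasma protein genes, 3 of 15 apolipoprotein genes and 12 of 29 liver transcription factor genes had one.

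Sequences of the anchors differed widely between the retained loops, and a few are shown because the results below turn on them. The retained loop with most PETs lay in the pericentromeric satellite region of chromosome 16, and the centres of its anchors, at chr16:46388476-46388625 and chr16:46400399-46400548 of GRCh38 on the plus strand, are printed with ATTCC or GGAAT in capitals.
chr16 anchor 1: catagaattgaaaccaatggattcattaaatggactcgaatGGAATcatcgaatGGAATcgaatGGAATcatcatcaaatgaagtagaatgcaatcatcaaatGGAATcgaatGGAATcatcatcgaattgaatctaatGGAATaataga
chr16 anchor 2: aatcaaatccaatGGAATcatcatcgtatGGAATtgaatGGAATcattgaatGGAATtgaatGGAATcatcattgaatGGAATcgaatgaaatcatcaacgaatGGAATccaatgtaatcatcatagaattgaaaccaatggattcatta

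Promoter windows of RefSeq on GRCh38.p14, each running from 250 bases before to 50 bases after a gene start, are shown for 6 genes whose window lay inside an anchor of a retained loop. HNRNPC and PCK2 were at loops with few PETs after PDS, and PPP1R9B and HS6ST1 were at loops with more PETs after PDS. AHSG was the only gene of the plasma protein list with a promoter anchor in a retained loop, and SOCS1 was at 3 retained loops. SOCS1 was chosen after its values were seen. The windows lie at chr14:21269393-21269692 (minus strand), chr14:24094061-24094360 (plus), chr17:50150628-50150927 (minus), chr2:128318819-128319118 (minus), chr3:186612810-186613109 (plus) and chr16:11256155-11256454 (minus), in the order just named. Capitals mark a predicted G4 motif, which is 4 runs of at least 3 G, or of C for the opposite strand, with spacers of 1 to 7 bases.
HNRNPC: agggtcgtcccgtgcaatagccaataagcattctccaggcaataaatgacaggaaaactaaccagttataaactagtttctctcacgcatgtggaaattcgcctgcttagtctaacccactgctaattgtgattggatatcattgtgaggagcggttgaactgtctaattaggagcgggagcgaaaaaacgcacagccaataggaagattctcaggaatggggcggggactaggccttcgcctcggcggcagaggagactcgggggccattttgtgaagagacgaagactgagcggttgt
PCK2: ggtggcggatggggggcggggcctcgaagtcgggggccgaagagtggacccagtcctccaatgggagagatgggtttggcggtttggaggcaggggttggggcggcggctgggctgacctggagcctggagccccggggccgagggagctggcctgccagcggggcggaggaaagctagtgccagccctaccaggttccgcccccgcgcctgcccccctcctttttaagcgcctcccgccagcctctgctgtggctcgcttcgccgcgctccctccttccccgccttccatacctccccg
PPP1R9B: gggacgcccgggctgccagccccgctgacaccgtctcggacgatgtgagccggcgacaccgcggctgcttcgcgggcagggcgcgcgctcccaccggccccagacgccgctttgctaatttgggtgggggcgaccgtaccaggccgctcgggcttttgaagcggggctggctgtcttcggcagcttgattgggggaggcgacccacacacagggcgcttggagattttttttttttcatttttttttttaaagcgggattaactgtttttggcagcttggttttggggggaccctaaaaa
HS6ST1: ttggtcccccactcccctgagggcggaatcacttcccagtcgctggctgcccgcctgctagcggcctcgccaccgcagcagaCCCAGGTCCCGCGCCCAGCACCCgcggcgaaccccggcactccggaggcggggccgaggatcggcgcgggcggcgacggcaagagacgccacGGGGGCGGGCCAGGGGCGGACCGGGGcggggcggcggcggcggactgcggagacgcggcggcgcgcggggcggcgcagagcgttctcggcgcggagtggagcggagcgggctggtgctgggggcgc
AHSG: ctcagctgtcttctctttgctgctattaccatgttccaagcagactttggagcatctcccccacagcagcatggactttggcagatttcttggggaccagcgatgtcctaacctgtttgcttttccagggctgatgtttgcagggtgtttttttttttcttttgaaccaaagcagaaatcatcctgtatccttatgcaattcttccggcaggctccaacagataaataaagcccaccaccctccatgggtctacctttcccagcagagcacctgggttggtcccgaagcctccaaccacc
SOCS1: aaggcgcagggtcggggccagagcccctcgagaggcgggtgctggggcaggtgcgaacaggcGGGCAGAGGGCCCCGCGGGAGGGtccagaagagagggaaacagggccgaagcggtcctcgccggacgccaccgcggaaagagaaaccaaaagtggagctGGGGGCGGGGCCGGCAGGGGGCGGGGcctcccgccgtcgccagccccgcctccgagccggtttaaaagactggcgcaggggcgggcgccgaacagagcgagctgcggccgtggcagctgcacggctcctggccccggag

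HS6ST1 and SOCS1 each held 2 predicted motifs in this window, and the other 4 windows held none. In all, 396 promoter windows lay inside an anchor of a retained loop, and 32.6% of them held a predicted motif (95% interval 28.1 to 37.3). The share was 31.9% (30.6 to 33.3) for 4632 windows inside the anchors of other mock loops of at least 5 PETs, and 25% for all 35116 windows of the table. The TATAAA motif, searched on both strands, was in 9.60% of the windows at retained loops, 7.51% at the other mock loops and 11.5% of all windows, with intervals of the first pair that overlapped. Of the 441 genes with a promoter anchor in a retained loop, 339 had a window in the table. A match is a run of letters and not a measured structure or site.

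For the strongest loops at protein-coding genes, the predicted motif nearest to an anchor centre is shown with its G runs in capitals. These lie at chr14:37870410-37870430 on the minus strand for TTC6, chr6:167285667-167285696 on the plus strand for UNC93A, and chr14:39052145-39052171 on the plus strand for SEC23A. They were 1772.5, 521.5 and 2249 bp from the anchor centre in that order, so only that of UNC93A lay in the central 2 kb. These loops had fewer PETs after PDS, as did 93.2% of all members with 15 or more mock PETs. A loop over the APOB body, with 5 mock and 8 PDS PETs, also held a motif, 313 bp from an anchor centre.
TTC6: GGGtgcaGGGGcGGGacaGGG
UNC93A: GGGGtGGGGGttctggaGGGcggccctGGG
SEC23A: GGGcacctgtGGGGagtgaGGGGaGGG

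The retained loops were 6.94% of the 12230 mock loops with at least 5 PETs, 46.5% of the 1824 PDS loops with at least 5 PETs and 11.6% of the 7333 loops present in both lists. Their median mock count was 7 PETs (quartiles 6 and 9), and their median PDS count was 5 (quartiles 5 and 6). Many members sat at the edge of the rule, with 430 at exactly 5 PETs after PDS, 183 at exactly 5 in mock-treated cells and 117 at 5 in both. Just outside the rule were 820 loops with at least 5 mock PETs and 4 PDS PETs, and 187 with 4 mock PETs and at least 5 PDS PETs. The median mock count was 6 for members with 5 PDS PETs and also 6 for the loops that just missed with 4. A further 1612 strong mock loops had 3 PDS PETs and 8949 were absent from the PDS list, where a loop can have up to 2 PETs without being listed.

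PET counts of the retained loops were lower after PDS in 551 loops (64.9%), equal in 184 (21.7%) and higher in 114 (13.4%). Over all loops in both lists, 55.3% were lower and 14.6% higher. At least 2-fold lower counts were found in 93 members (11%), against 17.0% of all loops in both lists, and at least 2-fold higher counts in 2 members (0.236%), against 1.24%. Since the rule used these counts, nothing is read from the differences. The median log2 PDS/mock ratio of PETs was -0.26, a ratio of 0.833, with quartiles of -0.68 and 0 and a range from -2 to 1.14. Summed over the members, 9407 mock PETs stood against 7273 PDS PETs, a ratio of 0.773 (95% interval 0.750 to 0.797, counting error only). Over all loops in both lists the ratio was 0.755, and over the whole lists, with 254647 and 67001 PETs, it was 0.263. Counts were not scaled. Divided by the list totals, the median log2 ratio of the members would be 1.66, and divided by the totals over loops in both lists it would be 0.14, so the direction of the ratio depends on the scaling.

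**Figure D1:**
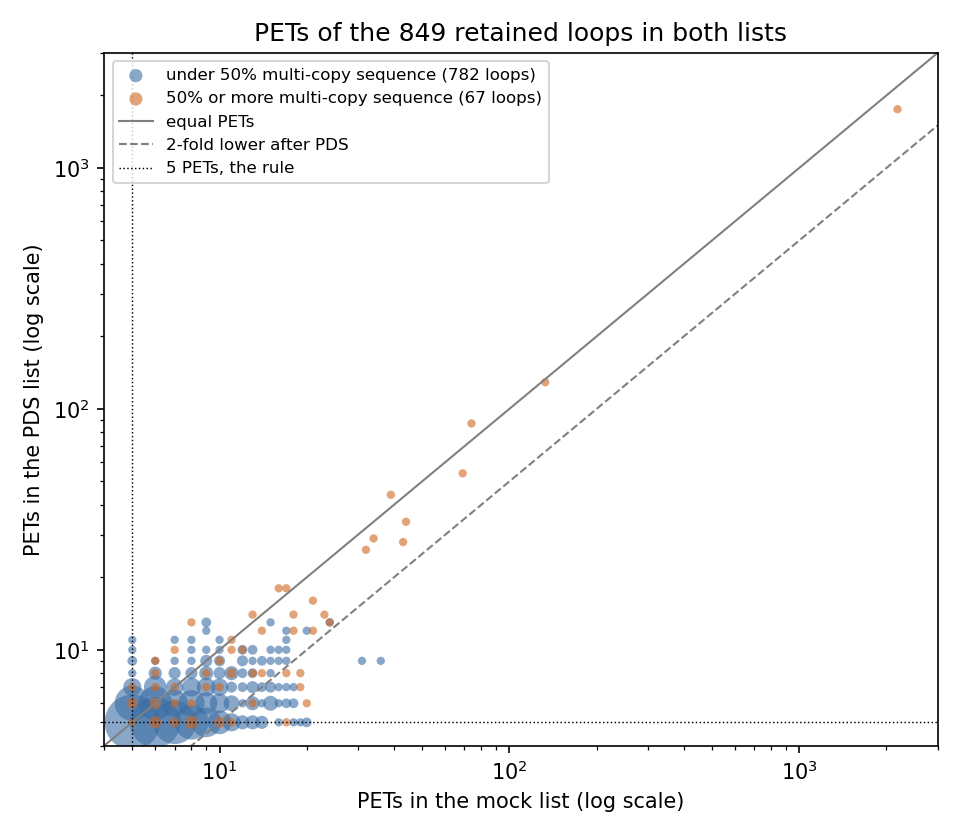
PETs in the mock list (x axis) and the PDS list (y axis), both on log scales, for the 849 retained loops, with point area growing with the number of loops at the same pair of counts and colour showing multi-copy sequence in the anchors. Most loops crowd next to the 5 PET lines of the rule, and the loop with most PETs, at 2183 and 1753, lies far from all others.

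The ratio fell as the mock count rose, and the rule sets the lowest ratio possible at each mock count. How far the rule makes this trend was not tested. The 183 members with 5 mock PETs could not fall, and their median ratio was 1. The median was 0.833 at 6 mock PETs, 0.714 at 7, 0.667 at 8 to 9, 0.545 at 10 to 14 and 0.471 among the 59 members with 15 or more. The share of strong mock loops that were retained rose over the same steps, from 2.98% (95% interval 2.59 to 3.44) at 5 mock PETs and 6.17% at 6 to 26.8% (23.2 to 30.7) at 10 to 14 and 74.7% (64.1 to 83.0) at 15 or more.

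The retained loops with most PETs were not at genes. Of the 10 loops with most summed PETs, 9 had no protein-coding gene and had at least 50% multi-copy sequence in an anchor, meaning that 50% or more of sampled 31-base sequences occur more than once in the reference. The highest was the chromosome 16 loop, from chr16:46385643-46391459 to chr16:46397703-46403244, with 2183 mock PETs and 1753 PDS PETs (ratio 0.803, 95% interval 0.754 to 0.855). This single loop held 23.2% of the mock PETs and 24.1% of the PDS PETs of all members. Without it, the summed ratio was 0.764. Its anchors held 46.8 and 47.5 copies of ATTCC or GGAAT per kb, the repeat shown in the chromosome 16 sequences, while the median over all 81742 anchors was 2.0 per kb. This pentamer is the repeat unit of classical human satellite DNA.

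The 6 retained loops of this chromosome 16 locus held 2484 mock PETs and 2043 PDS PETs. A neighbouring pair of anchors in it had 74 mock and 87 PDS PETs, so the direction was not uniform within the locus. Other members with multi-copy anchors and no coding gene, not all of them rich in this pentamer, lay on the unplaced contig GL000224v1 (69 and 54 PETs), on chromosome Y (39 and 44), at chr17:25114612-26606048 (34 and 29), at chr2:90286657-91530044 (43 and 28), at chr1:143244346-143259815 (17 and 18) and at chr13:16006409-16023543 (23 and 14). In all, 67 members (7.89%) had at least 50% multi-copy sequence in an anchor, against 1.91% of the 11381 strong mock loops that were not retained. The 50% limit was added after seeing the data. At the planned limit of 10% the direction was the other way, with 66.0% of members (62.7 to 69.1) and 69.9% (69.0 to 70.7) of the non-retained strong mock loops. Of the 67, 15 had over 20 of the pentamers per kb in both anchors. These 67 loops held 34.9% of the members' mock PETs, with a ratio of 0.808 (0.768 to 0.851). All 25 members longer than 200 kb were among them, while 50 of 238 non-retained strong mock loops of that length were. Reads from repeated sequence cannot be placed at 1 copy with certainty. Among the 36 members that reached 10 PETs in each list, 22 were multi-copy loops.

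At protein-coding genes, the members with most PETs lay in UNC93A and TTC6. The UNC93A loop, from chr6:167214802-167226086 to chr6:167280195-167290125 with the gene body under an anchor, had 36 mock PETs and 9 PDS PETs, a ratio of 0.25 (95% interval 0.122 to 0.511). A second UNC93A loop from the same first anchor had 16 and 6. The strongest TTC6 loop joined chr14:37702683-37722450 to chr14:37863515-37880870, both inside the gene, with 31 mock PETs and 9 PDS PETs (ratio 0.290, 0.140 to 0.600). SEC23A, which codes for a coat protein of vesicles leaving the endoplasmic reticulum, followed with 24 and 13 PETs (interval of the ratio 0.279 to 1.05), and was chosen after its values were seen.

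TTC6, a tetratricopeptide repeat gene next to FOXA1 on chromosome 14, held 10 retained loops, 8 of them joined through shared anchors into 1 locus at chr14:37653615-37880870. The locus had 91 mock PETs and 52 PDS PETs, a ratio of 0.571 (0.407 to 0.802). Within it, counts went from 14 to 5, from 13 to 6 and from 10 to 8 in neighbouring short loops, stayed at 6 in a pair of loops, went from 6 to 5 in another and went from 5 to 7 in the last. The 5 loops with most mock PETs in the gene were all lower after PDS. So were 97.2% of all members with 10 to 14 mock PETs and 93.2% of those with 15 or more. FOXA1, a liver transcription factor gene, had no promoter anchor in a retained loop.

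**Figure D2:**
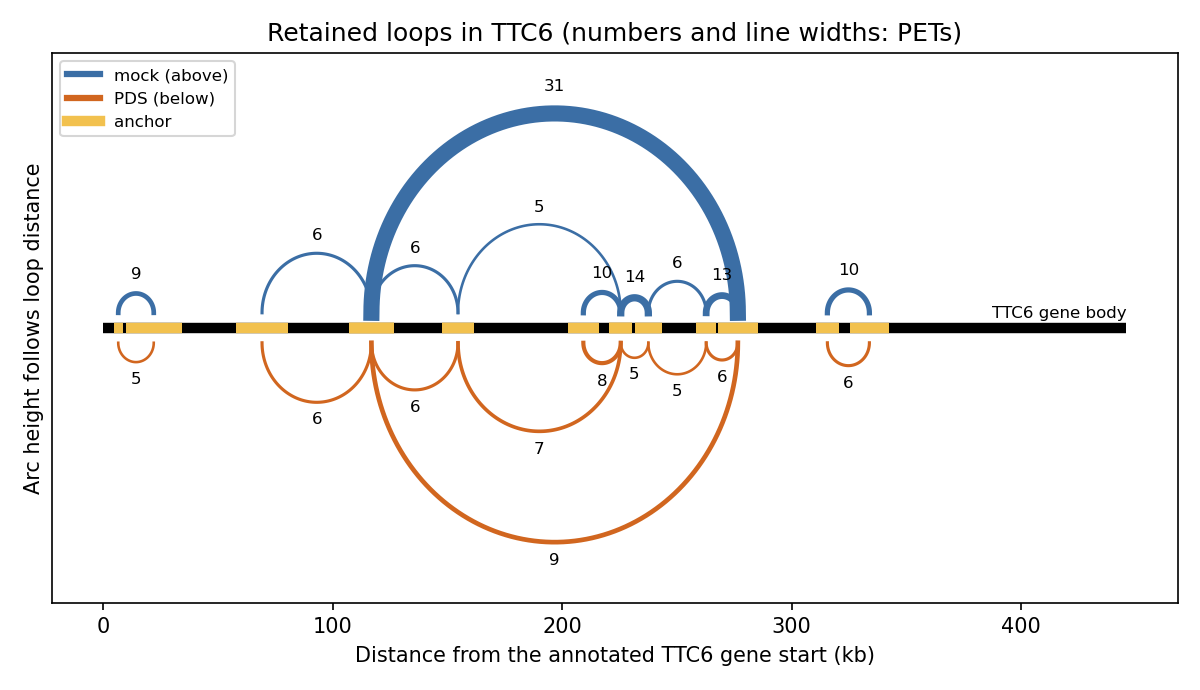
Retained loops in TTC6, drawn as arcs between anchor midpoints against the distance in kb from the annotated gene start, with mock PETs above and PDS PETs below as numbers and line widths. The long arc has 31 mock PETs and 9 PDS PETs, while the shorter arcs keep between 5 and 8 PETs after PDS.

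The lowest ratios among the members were 0.25, reached by UNC93A, by HNRNPC and by a loop with no coding gene at chr20:20996607-21057243 (20 and 5 PETs). HNRNPC codes for an RNA-binding protein that coats nascent transcripts in the nucleus. Its promoter loop, from chr14:21255081-21259331 to chr14:21260151-21271039, had 20 mock PETs and 5 PDS PETs (interval of the ratio 0.0972 to 0.643). The other HNRNPC members did not share this size of change, with 9 and 5 PETs in one and 6 and 7 in the other. A loop over ARHGEF40, TMEM253 and ZNF219, of which ARHGEF40 is a guanine nucleotide exchange factor and ZNF219 a zinc finger transcription factor, had 19 and 5 PETs (ratio 0.263). A loop from a promoter of AKR1C2, an aldo-keto reductase that acts on steroid hormones and is a target of NRF2, had 18 and 5 PETs (ratio 0.278, 0.107 to 0.721), with anchors at chr10:4950444-4957921 and chr10:5005459-5022610. ACSM5, of the medium-chain acyl-CoA synthetase family, had 20 and 6 PETs in a loop with 51.5% multi-copy sequence. A multi-copy loop at chr20:26475315-26584858 with no coding gene had 17 and 5 PETs. These loops were picked for their low ratios, so their intervals give counting error and no test.

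The highest ratios were small in PETs. A ZFHX3 loop, from chr16:72980705-72993086 to the promoter anchor chr16:73027314-73060358 of this homeobox transcription factor gene, had 5 mock PETs and 11 PDS PETs. The 2 retained promoter loops of ZFHX3 together had 12 and 17, and the other loop was lower after PDS. MACROD2, whose product removes ADP-ribose from proteins, had 5 and 10 PETs in a loop inside the gene. RAB11A, a GTPase of recycling endosomes, and HS6ST1, a heparan sulfate sulfotransferase whose promoter window is shown above, each had 5 and 9. Another 2 retained loops, inside the HS6ST1 gene body, went the other way, with 15 and 10 together. APOB, the main protein of low density lipoprotein, had 5 and 8 PETs in a loop with its gene body under an anchor (ratio 1.6, 0.551 to 4.65). A loop joining the promoters of SAMD14 and PPP1R9B, which codes for a scaffold of protein phosphatase 1, had 7 and 11. LRFN5, a cell adhesion gene of neurons, had 6 and 9 in one loop. Its 4 promoter loops together had 29 and 27, with 6 and 8, 6 and 5, and 11 and 5 in the other three, and a loop inside the gene had 15 and 7. The remaining loop of this group, at chr2:90378972-91431435, was a multi-copy loop with 8 and 13 PETs. In this group of 8, picked for its high ratios, no loop passed 13 PETs after PDS.

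By promoter class, 450 retained loops (53.0%) had no promoter anchor, 269 (31.7%) joined a promoter to a region without one, 88 (10.4%) had promoters of the same gene at both anchors and 42 (4.95%) joined promoters of different genes only. A promoter anchor was thus found in 47.0% of members (95% interval 43.7 to 50.4), in 50.7% (49.8 to 51.6) of the strong mock loops that were not retained and in 45.6% (44.3 to 46.8) of the other 6484 loops in both lists, with intervals that overlapped between members and both groups. A start lying between close anchors can come within 1 kb of both, so a same-gene loop need not join separate promoters. The lower quartile of the gap between members' anchors was 1212 bp. The class also depended on the transcripts used. With canonical transcripts alone, 24.0% of members had a promoter anchor (21.3 to 27), against 29.9% (29.0 to 30.7) of the non-retained strong mock loops. Among loops without a promoter anchor, 187 members lay inside 1 coding gene, 25 had a coding gene body under an anchor and 238 touched no coding gene.

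Loops with no coding gene made up 28% of members (25.1 to 31.1) and 22.5% (21.7 to 23.3) of the non-retained strong mock loops, with intervals that did not overlap. In the other loops of both lists the share was 26.2% (25.2 to 27.3), which overlapped that of the members. Loops with at least 50% multi-copy sequence, 7.89% of members and 1.91% of the non-retained strong mock loops, were not left out of these shares. Without them, 49.5% of members (46.0 to 53.0) had a promoter anchor. On the 6 chromosomes with most members the shares in members and non-retained strong mock loops were 28.1% (24.9 to 31.5) and 24.6% (23.6 to 25.6), and on the others 27.9% (21.3 to 35.6) and 18.8% (17.7 to 20.0). A lncRNA promoter without a coding promoter was under an anchor of 101 members (11.9%) and of 8.86% of the non-retained strong mock loops. Loops are not replicates, and neighbouring loops share anchors, so these intervals cover counting error only.

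**Figure D3:**
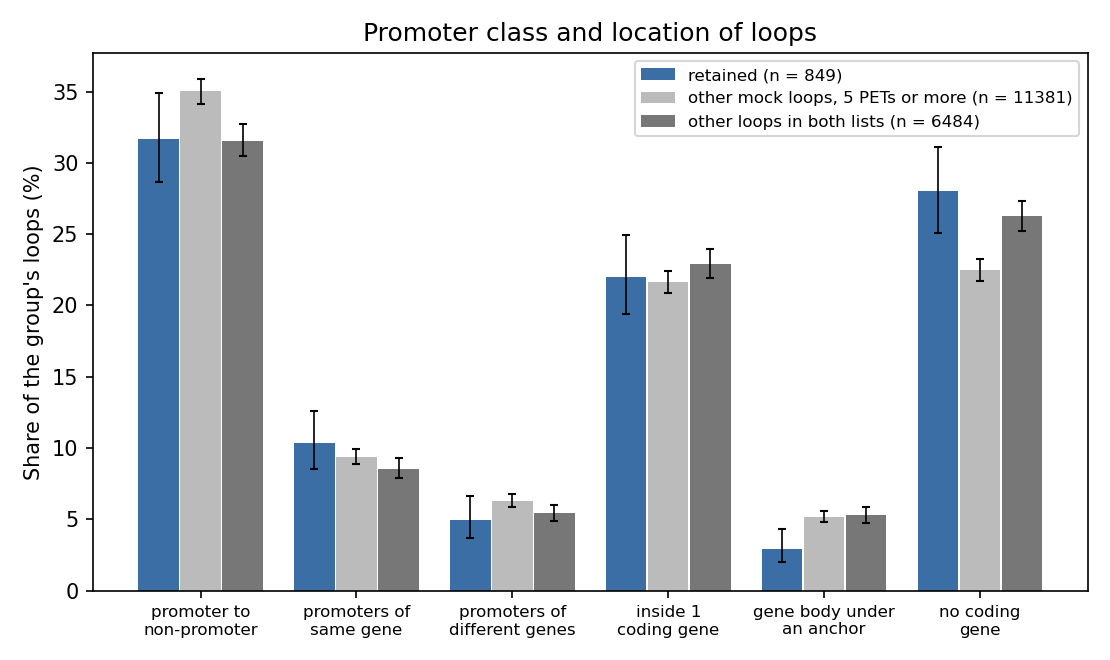
Share of loops (y axis, percent) in each promoter class or location (x axis) for retained loops, other mock loops of 5 PETs or more and other loops in both lists, with 95% Wilson intervals as error bars. Bars of the 3 groups are close in most classes, and the class with no coding gene is at 28% of retained loops and 22.5% of other strong mock loops.

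The PDS/mock ratio of summed PETs was 0.749 (95% interval 0.710 to 0.790) for members with a promoter anchor and 0.785 (0.757 to 0.815) for those without. It was 0.769 (0.721 to 0.821) for promoter to non-promoter loops, 0.757 (0.646 to 0.888) for promoters of different genes and 0.688 (0.615 to 0.771) for promoters of the same gene. The median log2 ratio was -0.26 in every one of these classes except the same-gene loops, where it was -0.44 with an interval (-0.64 to -0.26) that reached the value of the others. Members with a predicted G4 motif in an anchor had a ratio of 0.743 (0.714 to 0.774), and those without had 0.815 (0.778 to 0.854). The latter held the chromosome 16 loop with most PETs, whose own ratio, given above, was lower than that of the group. The median log2 ratio was -0.26 in members with and without a motif.

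Among loops with promoters at both anchors, 2 of the 3 with most PETs lay on chromosome 20 at DNAJC5, a chaperone of synaptic vesicles. A loop from DNAJC5 to UCKL1, a uridine-cytidine kinase gene, had 16 mock PETs and 10 PDS PETs, and one over TPD52L2 and DNAJC5 had 18 and 7. FAM86B1 and FAM86B2, near-identical genes on chromosome 8, were joined by a loop of 19 and 7 PETs with 90.9% multi-copy sequence, and reads of the copies cannot be told apart. The ARHGEF40 loop described above was next. At chr14:24050737-24096967 a loop joined the promoters of CARMIL3, CPNE6 and NRL to those of NRL and PCK2, the mitochondrial form of phosphoenolpyruvate carboxykinase, with 18 and 6 PETs (ratio 0.333, 0.136 to 0.815). RBM39, a splicing factor gene, had 15 and 8 PETs in a loop of the same-gene class. GMEB2 had 14 and 9. A chromosome 17 loop between CCDC57, SLC16A3, the lactate transporter MCT4, and CSNK1D, casein kinase 1 delta, had 15 and 7. The zinc finger genes ZNF28 and ZNF468 had 14 and 8, and NBPF1, of a multi-copy gene family, had 15 and 6. All of these loops had fewer PETs after PDS. So did 97.2% of all members with 10 to 14 mock PETs and 93.2% of those with 15 or more.

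In total, 441 protein-coding genes had a promoter anchor in a retained loop, which is 2.20% of 20020 annotated genes and 9.21% of the 4789 genes with a promoter anchor in a mock loop of at least 5 PETs. Of these genes, 63 had at least 2 retained loops and 324 lay on the 6 chromosomes with most members. RALGAPA1 on chromosome 14, which codes for a subunit of a GTPase-activating complex for Ral, had the most, with 5 promoter loops whose summed PETs were 35 and 36. AKAP6, an anchoring protein for protein kinase A, had 4 loops with 27 PETs in both lists. SOCS1, an inhibitor of cytokine signalling, had 3 loops of 9 and 5, 8 and 8, and 5 and 7 PETs, in an anchor that also holds promoters of RMI2 and TNP2. EPAS1, the hypoxia-inducible factor HIF-2 alpha, had 3 loops with 19 and 16 PETs. These 4 genes were chosen after their values were seen.

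Hepatocyte genes are given by list. Of 28 listed plasma protein genes with a promoter anchor in a mock loop of at least 5 PETs, only AHSG had a retained loop. AHSG codes for the plasma glycoprotein fetuin-A, and its loop had 15 mock PETs and 7 PDS PETs (ratio 0.467, 0.196 to 1.11). Genes outside the list, such as SELENOP (10 and 5 PETs) and FN1 (5 and 5), were not counted. No apolipoprotein gene had a retained promoter loop, and the only member at an apolipoprotein gene was that over the APOB body. Of 12 liver transcription factor genes with a strong mock promoter loop, PPARA, the nuclear receptor of fatty acid oxidation, had a retained loop of 6 and 5 PETs. Of 15 lipid and sterol synthesis genes, FASN, fatty acid synthase, had one of 6 and 6, shared with DUS1L and CCDC57, while the body of ACACA, an acetyl-CoA carboxylase, lay under an anchor of another (6 and 5). Of 14 NRF2 target genes, AKR1C2 and MAFG, the small Maf partner of NRF2, had retained loops, the second joining MAFG to PYCR1 with 9 and 5 PETs.

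Of 9 genes for G4 helicases and binders, TOP1, DNA topoisomerase I, had a retained promoter loop, with 9 PETs in both lists. TOP1 lay in a locus of 4 members at chr20:40982908-41081401 with 37 mock and 29 PDS PETs, and the strongest of them had 16 and 9. The body of BRIP1, a DNA helicase gene, was under an anchor of a loop of 10 and 7. HNRNPC and RBM39 were the splicing factor genes among 18 with a strong mock loop. The ribosomal protein genes RPL7A (8 and 6 PETs) and RPS6 (5 and 6) were the retained ones among 26, and H4C8 (5 and 6) among 25 histone genes. Of 16 long noncoding RNA genes, MALAT1 had a loop of 9 and 5 PETs, LINC00511 had a promoter loop of 6 and 5 and a loop over its gene body of 8 and 5, and LINC01554 shared a loop of 7 and 5 with ELL2. None of the genes listed for the DNA damage response, cohesin and loop architecture, cytochrome P450 and phase II enzymes, heat shock proteins, immediate early response or metallothioneins had a promoter anchor in a retained loop, although 13, 5, 12, 6, 11 and 2 of them had one in a mock loop of at least 5 PETs. Read against the 9.21% of all such genes, counts this small set no list apart. The lists do not hold every gene of these functions. Genes outside them that had retained promoter loops include FANCA, with 3 loops of 22 mock and 17 PDS PETs in sum, and the chaperone gene DNAJC5, with 34 and 17. Of the 441 genes, 252 had the start of their canonical transcript at an anchor of a retained loop. AKR1C2, TTC6, TOP1, EPAS1, AKAP6 and SEC23A were among the others, whose promoter anchors lay at starts of other transcripts.

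The members were concentrated on 6 chromosomes. Chromosome 14 held 174, chromosome 2 held 160, chromosome 20 held 127, chromosome 16 held 92, chromosome 6 held 79 and chromosome 17 held 70. Together they had 82.7% of the members (95% interval 80.0 to 85.1), against 63.3% (62.4 to 64.2) of the strong mock loops that were not retained and 67.9% (66.8 to 69.0) of the other loops in both lists. The 6 were picked for their member counts, so this share and the retained shares on them below are a description, with a direction that the choice favours. The mock list itself was dense on these chromosomes, with 36.7 to 89.1 loops per Mb, and the next highest was chromosome 19 with 28. HepG2 is known to carry extra copies of several chromosomes, 14 and 20 among them. Copy number was not measured in these files, and its part in the result was not tested.

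**Figure D4:**
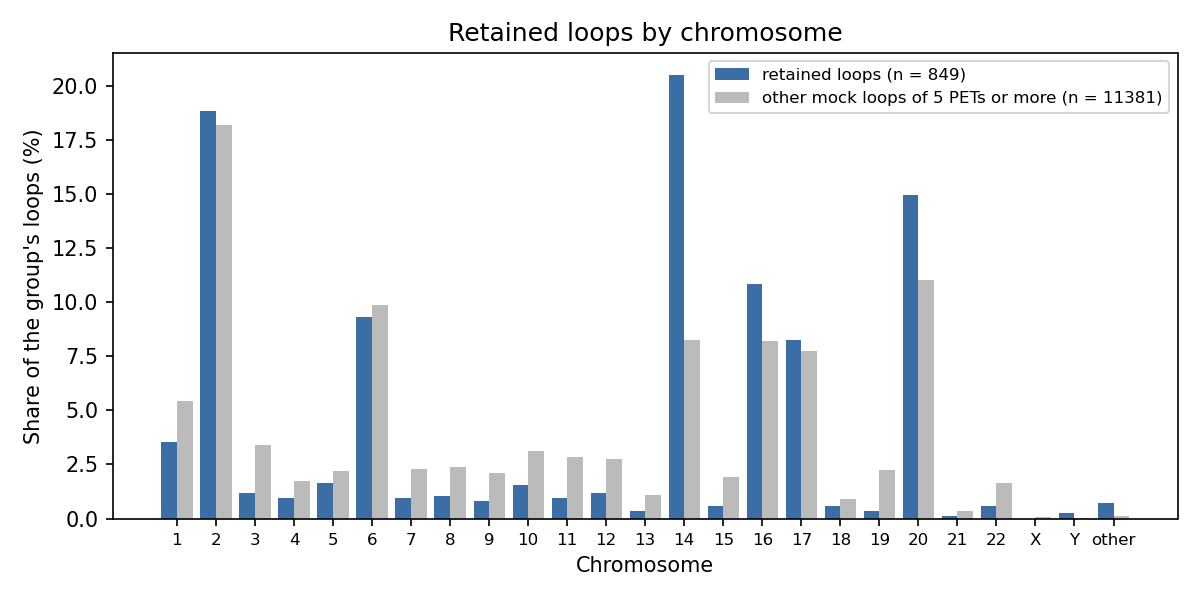
Share of loops on each chromosome (y axis, percent) for retained loops and for other mock loops of 5 PETs or more, with unplaced contigs as other. Chromosome 14 holds 20.5% of retained loops and 8.24% of the other strong mock loops, and chromosome 20 holds 15% and 11%.

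On chromosome 14, 15.6% of the 1112 strong mock loops were retained (13.6 to 17.9), against 9.19% (7.78 to 10.8) on chromosome 20, 8.95% on chromosome 16, 7.35% on chromosome 17, 7.18% on chromosome 2 and 6.57% on chromosome 6. The intervals of the last 5 overlapped each other. Retention was 8.88% (8.27 to 9.53) over the 6 chromosomes and 3.40% (2.90 to 3.98) over all others. At equal mock counts the shares were 3.99% and 1.5% at 5 PETs, 7.44% and 3.79% at 6, 9.88% and 4.52% at 7, 16.5% and 6.78% at 8 to 9, and 28.2% and 21% at 10 to 14, the last pair with overlapping intervals. At 15 or more they were 73.8% and 78.6%, on 65 and 14 loops. The summed PDS/mock ratio of members was 0.772 (0.747 to 0.798) on the 6 chromosomes and 0.782 (0.719 to 0.851) on the others. Among the 6, it ran from 0.722 (0.668 to 0.780) on chromosome 14 to 0.809 (0.768 to 0.852) on chromosome 16, where 1 loop held most PETs.

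**Figure D5:**
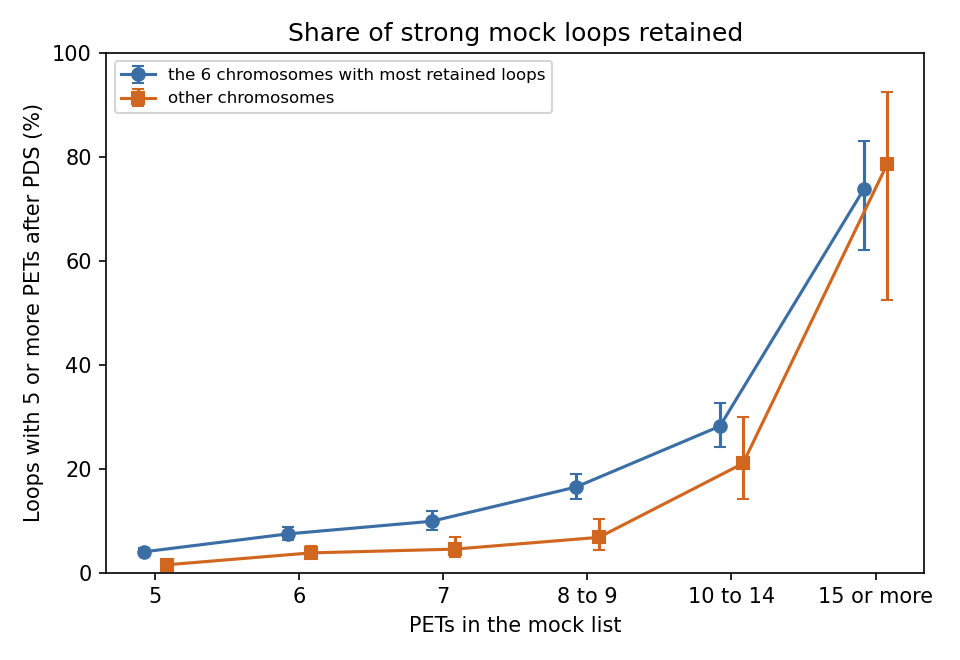
Share of mock loops that had at least 5 PETs after PDS (y axis, percent) by their PETs in the mock list (x axis), for the 6 chromosomes with most retained loops and for the others, with 95% Wilson intervals. Both lines climb with the mock count, and the 6 chromosomes lie above the others up to 10 to 14 PETs, with overlapping intervals from there on.

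Within chromosome 14 the members were crowded between 20 and 50 Mb. The 10 Mb from 30 to 40 Mb held 105 members of 577 strong mock loops (18.2%, 15.3 to 21.6), that from 20 to 30 Mb held 48 of 309 (15.5%) and that from 40 to 50 Mb held 16 of 76 (21.1%, 13.4 to 31.5). No other 10 Mb of the genome held more than 22. Joined through shared anchors, the 849 members formed 700 loci, of which 610 had 1 loop, 60 had 2, 17 had 3 and 13 had 4 or more. The largest, with 9 loops at chr14:43047883-43332068, held 107 mock PETs and 71 PDS PETs (ratio 0.664, 0.492 to 0.895) in a region with no coding gene and 1 lncRNA gene known only by its identifier. Its strongest loop had 20 and 12 PETs. A locus of 7 loops at PSMA6, a proteasome subunit gene, and PRORP, a tRNA-processing nuclease gene, held 63 and 48 PETs. The STXBP6 locus of 4 loops held 41 and 25. The 4 loops around CARMIL3, CPNE6, NRL and PCK2 held 51 and 30 PETs (ratio 0.588, 0.376 to 0.920).

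Anchors of retained loops were wide. Their median width was 11168 bp (95% interval 10752 to 11589), against 8071 bp (7993 to 8152) for the strong mock loops that were not retained. From midpoint to midpoint, the anchors of a retained loop were a median of 16290 bp apart (15726 to 16907), against 13307 bp (13103 to 13522), while the gap between the anchors was smaller, at 2428 bp against 3394 bp. A wider anchor can collect more PETs, and the part of width in these results was not tested. Of the strong mock loops, 12.3% (11.4 to 13.4) of the widest tercile of mean anchor width were retained, 5.49% of the middle one and 2.99% (2.51 to 3.56) of the narrowest. At equal mock counts, the widest and narrowest terciles had 5.47% and 1.09% at 5 PETs, and 21.8% and 5.08% at 8 to 9. At 10 to 14 they had 33.7% and 22.0%. At 15 or more the order turned, with 72.0% (58.3 to 82.5) and 88.2% (65.7 to 96.7), on 50 and 17 loops. From the widest tercile to the narrowest, the shares were 14.6%, 7.28% and 3.68% on the 6 chromosomes and 6.63%, 2.5% and 1.99% on the others, a description since the 6 were picked for their members. Nearly all anchors, 81737 of 81742, had an MboI site at both ends, so their edges lay at cut sites. What set their widths is not given in the sources used here.

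A predicted G4 motif was in at least 1 anchor of 672 members (79.2%, 95% interval 76.3 to 81.8), of 78.5% (77.7 to 79.2) of the non-retained strong mock loops and of 78.6% (77.6 to 79.6) of the other loops in both lists. Without members of at least 50% multi-copy sequence, the members' share was 82.6% (79.8 to 85.1). Such loops were not left out of the other groups, or of the shares below. Since wide anchors hold more motifs, the central 2 kb of each anchor was also searched. There, 38.6% of members (35.4 to 42.0) and 43.7% (42.8 to 44.6) of the non-retained strong mock loops held a motif in at least 1 anchor, with intervals that did not overlap. The share was 41.3% (40.2 to 42.6) in the other loops of both lists, which overlapped that of the members. On the 6 chromosomes the shares in members and non-retained strong mock loops were 37.9% (34.4 to 41.5) and 42.1% (41.0 to 43.2), and on the others 42.2% (34.5 to 50.3) and 46.5% (45.0 to 48.0), with overlapping intervals in both. Over whole anchors, the density was 0.242 motifs per kb in the 1540 anchors of members and 0.254 in those of the non-retained strong mock loops. Retention was 7.0% (6.51 to 7.53) for strong mock loops with a motif and 6.73% (5.84 to 7.75) for those without. The median GC content was 42.1% in members and 43.6% in the non-retained strong mock loops.

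Loops that share an anchor with a member, but are not members, give PET counts that the rule did not use directly. Their anchors were still chosen through the members. They held 21758 mock PETs and 6081 PDS PETs, a ratio of 0.279 (95% interval 0.272 to 0.288), against 0.240 (0.238 to 0.242) for loops touching no anchor of a member. By number of loops, the ratios were 0.335 (0.318 to 0.354) and 0.268 (0.263 to 0.273). Within the 6 chromosomes the PET ratios were 0.283 (0.274 to 0.291) and 0.265 (0.262 to 0.268), and on the others 0.250 (0.227 to 0.275) and 0.212 (0.209 to 0.215). With a promoter anchor they were 0.241 (0.231 to 0.251) and 0.211 (0.207 to 0.214), and without one 0.317 (0.305 to 0.329) and 0.266 (0.263 to 0.269). In each of these splits the loops at members' anchors had the higher ratio and the intervals did not overlap. Loops of at least 5 PETs in both lists are left out of both sides by the rule, and anchor width was not matched here.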

How the data were processed

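POLR2A HiChIP-seq of HepG2 cells, mock- or PDS-treated with 2 replicates each, was given as 1 list of loops per condition. Per the labels and methods, the authors aligned reads to GRCh38, removed duplicates and assigned MboI fragments with HiC-Pro 3.1.0, which the submitters' processing notes name too. The deposited values are whole-number counts of PETs per loop, unscaled and at least 3. The loop caller and the way replicates were combined are not given in the sources used here. The lists hold 66417 mock loops and 18778 PDS loops, and their PET sums are not library depths.

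Loops were matched by identical anchors and kept at 5 or more PETs in both lists. The members and gene lists were chosen with earlier results of these data known. Genes come from GENCODE 44, promoter windows from RefSeq. Genes were named at the 10 members with most PETs, the 10 promoter-to-promoter members with most PETs, the 8 highest and 8 lowest ratios, and from 16 gene lists. Wilson 95% intervals (SciPy 1.17.1), rank intervals of medians and intervals of ratios cover counting error only. Multi-copy sequence was the share of 31-base sequences, sampled every 20 bases, found more than once in the reference without alternate contigs. The functions were tested on simulated data. Python 3.11.15, pandas 2.3.3 and pysam 0.24.0 were used. Higher and lower PET minimums, other promoter windows, motif definitions, scalings and loop matching were tried.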

Additional observations from a re-analysis of the deposited data

How the results depend on the processing

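The PET minimum set the size of the set. At minimums of 4, 6, 7 and 10 PETs there were 2271, 353, 167 and 36 retained loops, 1116, 205, 92 and 9 genes and 1740, 300, 142 and 26 loci, and anchors within 5 kb gave 1552 loops. Leaving out loops with 10% or more multi-copy sequence left 289 loops, since ordinary repeats reach that level. A limit of 50% was added after seeing the data and left 782. The promoter share was 43.1% at 7 PETs, 16.7% at 10 and 24.0% with canonical transcripts, which left 252 genes. The share joining promoters of different genes was 7.19% at 7 PETs, 2.78% at 10 and 3.18% with canonical transcripts. The median log2 ratio was -0.32 at 4 and 6 PETs, -0.36 at 7 and -0.34 at 10, and turned to 1.66 and 0.14 when scaled by list totals and by totals over loops in both lists. The share on the 6 chromosomes was 76.0% at 4 PETs, 88.6% at 7, 86.9% by PETs and 87.9% without 10% multi-copy loops. The motif share was 75.4% at 7 PETs, 47.2% at 10, 89.4% with spacers up to 12 bases, 57.6% for 2 motifs in 1 anchor, 38.6% in the central 2 kb and 82.6% without 50% multi-copy loops. The ratio of other loops at members' anchors was 0.0882 for loops of at least 5 PETs, which the rule bars from passing in both lists, 0.335 by loop number and 0.267 without chromosome 14. The other 29 of 69 alternative values stayed within the error or within 1.5 times. No paired analysis was possible because the replicates of each condition were combined in 1 list, and leaving out a replicate could not be run for the same reason. With 5 to 7 PETs in most members, single ratios have wide intervals, and the list of members would shift with small changes in depth.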
